A study of Mus musculus with 30 samples.

Results

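The AP-1 and Egr immediate early genes are the first genes that a cell transcribes after growth factors, stress or injury. Fos, Fosb, Fosl1, Fosl2, Jun, Junb, Jund, Egr1, Ier2 and Ier3 were chosen by name, which gave 10 of the 19468 gene rows of the kidney table and 10 of the 19685 rows of the pancreas table. The libraries came from C57BL/6 mice, 5 in each of 6 groups, that drank 0.2 mg/ml doxycycline for 7 days, and no undosed group was analysed here. The kidney groups were i4F mice, which carry a cassette of the Yamanaka reprogramming factors (Sox2, Klf4, Myc and Oct4, whose gene is Pou5f1) that doxycycline switches on, i4F mice that lacked Ink4a/Arf (the Cdkn2a locus), and i4F mice that lacked p53 (gene Trp53). The pancreas groups were i4F, i4F with Ink4a/Arf KO, and a group labelled p53 KO whose label does not name i4F. The age of the mice and the cells in which the cassette is active are not given in the sources used here. The question set by the design is how the level of each gene in reprogrammed tissue differs with loss of either tumour suppressor.

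As background, AP-1 is a pair of leucine zipper proteins, 1 from the Fos genes and 1 from the Jun genes, or a pair of Jun proteins. Mitogen-activated protein kinases raise transcription of Fos and Egr1 within minutes through serum response factor and its partners, and switch on Jun by phosphorylating the Jun protein that sits at its own promoter. Fosl1 and Fosl2 follow later, Jund is present in unstimulated cells, and Egr1 is a zinc finger factor that binds GC-rich sites. Injured kidney tubules and acinar cells that lose their secretory state are known to induce these genes.

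Promoters are shown for Junb and Ier3, which rose most in pancreas, for Fos, and for Jun, which rose less, so that their sequences can be read beside their levels. Of the 10 members, 7 had a window from 250 bases before to 50 bases after the start of transcription in RefSeq GRCm38.p6 (mm10), and Egr1, Fosl1 and Ier2 had none. The 100 bases printed for each lie upstream of the gene, on the strand of the gene: chr12:85473790-85473889 (plus) for Fos, chr8:84978749-84978848 (minus) for Junb, chr4:95052223-95052322 (minus) for Jun and chr17:35821584-35821683 (plus) for Ier3. Capitals mark matches to the motifs searched.
Fos: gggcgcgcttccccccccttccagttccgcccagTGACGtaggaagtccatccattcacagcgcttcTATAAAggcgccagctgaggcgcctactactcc
Junb: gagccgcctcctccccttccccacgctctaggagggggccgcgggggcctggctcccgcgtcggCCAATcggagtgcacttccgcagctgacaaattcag
Jun: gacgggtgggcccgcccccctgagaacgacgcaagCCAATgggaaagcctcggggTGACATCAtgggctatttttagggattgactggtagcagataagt
Ier3: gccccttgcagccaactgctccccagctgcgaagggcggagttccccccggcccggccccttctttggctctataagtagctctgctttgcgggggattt

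Both strands of all 32851 windows were searched. The cyclic AMP response core TGACG, which also forms the start of the full site TGACGTCA, occurs in Fos at -66 and at -129 from the RefSeq start, in Fosb at -60 and in Junb at -106, and in 17.8% of all windows. Fos also holds TATAAA at -33, as do 12.4% of windows. Jun holds TGACATCA at -45, the variant through which Jun is known to bind its own gene, as do 2.93% of windows. CCAAT is found in Jun, Junb and Ier3 and in 33.8% of windows, and for Ier3 both matches lie outside the printed bases. The Egr site GCGGGGGCG is found in Fosb and Fosl2 and in 2.57% of windows. None of the 7 members holds TGACTCA (4.46% of windows), TGACGTCA (1.55%), GCGTGGGCG (0.536%) or a CArG box (1.47%) in this window. These matches describe letters in the sequence, not sites in use. In GENCODE M21 the genes Fosl1, Jun, Junb and Jund overlap a gene on the other strand (Ccdc85b, Junos, Prdx2 and Gm11175), and whether the authors' quantification used the strand is not given, so their levels are uncertain to that extent. Jun (chr4:95049034-95052222), Jund (chr8:70698949-70700616) and Ier2 (chr8:84661331-84662852) have a single exon in mm10, while Junb (chr8:84974484-84978718), Fos (chr12:85473890-85477273) and Ier3 (chr17:35821684-35822923) are spliced in at least 1 annotated transcript.

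The targeted genes were read first. In kidney, Trp53 lay at 10.1, 5.27, 4.896, 7.11 and 7.77 FPKM (fragments per kilobase of transcript, relative to the reads of the library) in replicates 1 to 5 labelled p53 KO, below the 14.8 to 20.3 of i4F and the 13.9 to 17.9 of Ink4a/Arf KO. In pancreas it lay at 16.4, 19.2, 10.7, 6.65 and 24.8 FPKM in the libraries labelled p53 KO, above the 1.64 to 6.99 of i4F and the 1.97 to 4.16 of Ink4a/Arf KO, so the level as deposited goes against that label. Divided by the size factor (below) it was 4.20 to 6.58, against 3.63 to 7.13 in i4F and 3.98 to 6.58 in Ink4a/Arf KO, which overlap, so it was no longer higher and still not lower. The pancreas libraries labelled p53 KO also differed as a whole. Their median-of-ratios size factors were 1.32 to 3.903, against 0.452 to 0.98003 in i4F and 0.495 to 0.636 in Ink4a/Arf KO, while kidney libraries ranged from 0.912 to 1.15. The median of all tested genes was 1.58 higher than in i4F on the log2(FPKM + 1) scale. Acinar marker genes held 6.11, 13.3, 22.9, 34.4 and 0.912% of summed FPKM in these 5 libraries, against 32.99 to 49.2% in i4F. Cdkn2a was at or below 0.318 FPKM in i4F of both tissues, so it does not check the Ink4a/Arf label. Kidney libraries showed proximal tubule markers (summed 21272 to 82359.6 FPKM in i4F) and pancreas libraries acinar markers, as their labels say. A library was read as female where Xist exceeded the Y-linked Ddx3y. In kidney 2 of the 5 i4F libraries, 1 of Ink4a/Arf KO and 0 of those labelled p53 KO were female. In pancreas these numbers were 3, 1 and 0. Comparisons of the libraries labelled p53 KO therefore set males against groups of both sexes. Values called scaled are FPKM divided by the size factor, and in pancreas every member is given on both scales. The size factor takes the median gene as unchanged between libraries, which was not tested. Rises and falls after scaling are therefore relative to that gene.

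Within a library FPKM can be compared between genes, since they are per length. In kidney i4F the order of mean levels was Jund, Ier3, Jun, Junb, Ier2, Egr1, Fosl2, Fos, Fosb and Fosl1. Jund, the Jun gene that is active in resting cells, lay at 33.7 ± 4.89 FPKM (mean ± SD, n = 5, as for all such values) and Ier3, which encodes a short-lived regulator of apoptosis, at 30.5 ± 12.8. The ranges of neighbours overlapped except between Ier3 and Jun (11.2 ± 4.05) and between Fosl2 (3.08 ± 1.41) and Fos (0.744 ± 0.418). Fosb and Fosl1 were nearly silent in kidney: Fosb stayed at or below 0.619 FPKM and Fosl1 at or below 0.545 in the 15 libraries.

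In pancreas i4F the order was Jund, Ier2, Jun, Junb, Fosl2, Ier3, Egr1, Fos, Fosb and Fosl1, and Fosl1 was listed at 0 in all 5 libraries. An exact 0 can be a failed estimate in this table, because the acinar enzyme genes Ctrb1, Pnlip and Cela2a are also listed at 0 in all 5. Jund lay at 11.5 ± 3.02 FPKM and Ier2, which encodes a nuclear protein of the immediate early response, at 7.64 ± 2.26. Ranges of neighbours overlapped except between Ier2 and Jun (2.86 ± 1.33). Ier3 thus came next to Jund in kidney and between Fosl2 and Egr1 in pancreas. The tables of the 2 tissues may have been normalized separately, so levels were not tested between tissues.

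**Figure D1:**
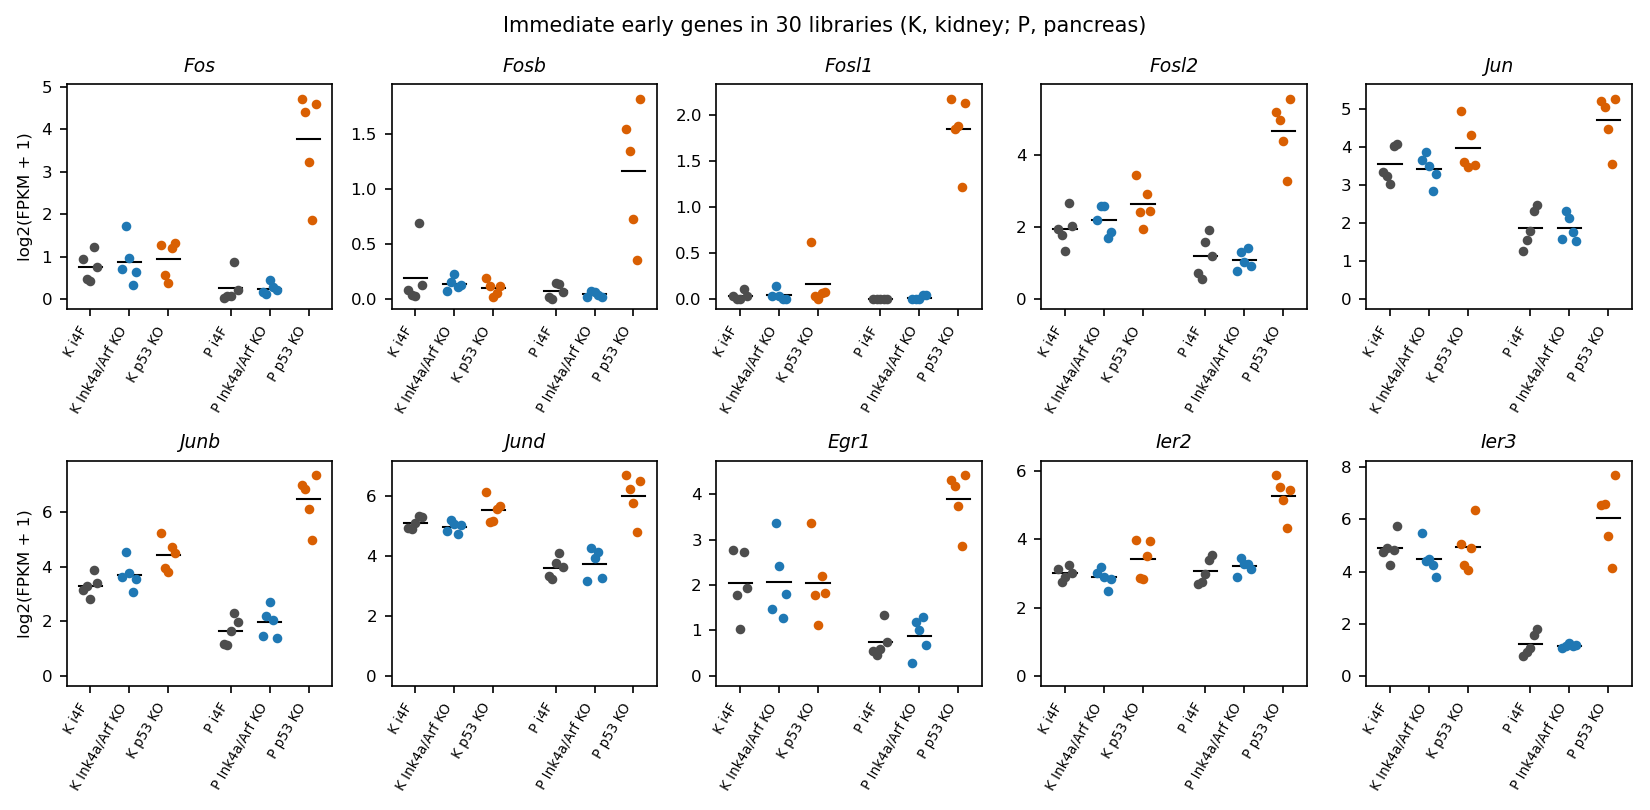
Levels of the 10 genes in all 30 libraries as log2(FPKM + 1), by tissue and group (5 points each, line at the mean). The pancreas libraries labelled p53 KO stand above both other pancreas groups in every panel, while the kidney groups overlap.

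All 10 members were higher in the pancreas libraries labelled p53 KO than in i4F, with no overlap of groups, on the values as deposited, on which Trp53 too was higher. That count carries little by itself: groups did not overlap in the same direction for 73% of all tested genes, and 93.4% passed the test (91.2% higher). After scaling, 9 of the 10 still did not overlap, against 22.4% of all genes, and 7 of the 9 tested members rose, against 32.9% of genes that rose and 66.1% called in either direction. Junb and Ier3 rose most, Fos, Fosl2, Egr1, Jun and Fosl1 followed, and Jund and Ier2 did not pass the test. The comparison with Ink4a/Arf KO uses the same 5 libraries labelled p53 KO, so it is no second sample of them: there 10 of 10 did not overlap as deposited (85.6% of genes) and 8 of 10 after scaling (26.2%). Its test called 9 of 9 as deposited (93.7% of genes, 91.7% higher) and 7 of 9 after scaling (67.7%, 33.9% higher). Fos and Fosl1 were under 1 FPKM in all 10 other pancreas libraries and Egr1 in 6 of them, so these 3 passed the filter (at least 1 FPKM in 5 of 15 libraries) only through the group where they are high, and no count that includes them is support. Of the other 6 tested members, 4 rose after scaling: Fosl2, Jun, Junb and Ier3.

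Fos, the founding Fos gene, reached 25.5, 20.3, 8.43, 2.68 and 23.1 FPKM in replicates 1 to 5 labelled p53 KO. In i4F it lay at 0.0261, 0.0525, 0.0564, 0.835 and 0.168, and in Ink4a/Arf KO at 0.136, 0.0947, 0.361, 0.2197 and 0.161. All 5 libraries labelled p53 KO lie above the highest library of either other group, and replicate 4 is the lowest of them. The log2 fold change against i4F was 3.51 ± 0.41 (SE, adjusted p = 9.73e-07) as deposited and 2.18 ± 0.23 (adjusted p = 1.88e-06) after scaling. The same values against Ink4a/Arf KO were 3.52 ± 0.41 and 2.09 ± 0.23. These fold changes, like all below, come from limma on log2(FPKM + 1), which understates the change of genes near or under 1 FPKM.

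Fosb, which encodes a Fos protein with an activation domain like that of Fos, was at 1.92, 1.54, 0.654, 0.285 and 2.53 FPKM in the libraries labelled p53 KO and at or below 0.108 in i4F and 0.05699 in Ink4a/Arf KO. The groups do not overlap, but Fosb missed the filter of 1 FPKM in 5 libraries and was not tested. Fosl1, which encodes Fra-1, a Fos protein known from invasive carcinoma cells, was at 3.52, 2.59, 2.68, 1.33 and 3.37 FPKM, against 0 in i4F and at most 0.0356 in Ink4a/Arf KO. Because it is listed at 0 no fold is given, and its fitted difference on the log scale, which depends on the added 1, was 1.85 ± 0.16 as deposited and 0.97 ± 0.07 after scaling (adjusted p = 4.41e-08).

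Fosl2, which encodes Fra-2 and was the main Fos transcript of every group, was at 35.8, 30.6, 20.2, 8.72 and 46.9 FPKM in the libraries labelled p53 KO. It lay at 0.649, 0.484, 2.01, 2.83 and 1.32 in i4F and at 0.731, 1.51, 1.06, 1.67 and 0.901 in Ink4a/Arf KO. Again no library of the other groups reaches the lowest one labelled p53 KO. The difference from i4F was 3.48 ± 0.36 (adjusted p = 3.92e-07) as deposited and 1.80 ± 0.20 (adjusted p = 3.86e-06) after scaling, and that from Ink4a/Arf KO was 3.59 ± 0.36 and 1.80 ± 0.20. The makeup of the Fos transcripts differed too. Fosl2 held 53.6 to 67.01% of the summed FPKM of the 4 Fos genes in the libraries labelled p53 KO, against 75.2 to 93.9% in i4F, with no overlap. Fos held 20.6 to 38.2%, against 2.597 to 22.2% in i4F, which overlap.

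Junb, which encodes a Jun protein that activates fewer genes than Jun and can oppose it, showed the widest rise of the Jun genes. It was at 127, 113, 68.7, 30.3 and 162 FPKM in the libraries labelled p53 KO, where it was the highest of the 10 members on average. It lay at 1.23, 1.202, 2.13, 3.94 and 2.91 in i4F and at 1.74, 3.61, 5.48, 3.102 and 1.598 in Ink4a/Arf KO. The lowest library labelled p53 KO, replicate 4, lies well above the highest of the other 10. The difference from i4F was 4.81 ± 0.39 (adjusted p = 4.35e-08) as deposited and 2.97 ± 0.24 (adjusted p = 1.83e-07) after scaling. From Ink4a/Arf KO it was 4.50 ± 0.39 and 2.51 ± 0.24.

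Jun, the Jun gene that drives proliferation in many tissues, was at 35.8, 32.2, 20.9, 10.8 and 37.4 FPKM in the libraries labelled p53 KO, 1.41, 1.93, 2.48, 3.94 and 4.54 in i4F and 1.98, 4.02, 3.36, 2.38 and 1.91 in Ink4a/Arf KO. Its difference from i4F was 2.83 ± 0.32 as deposited and 1.01 ± 0.16 (adjusted p = 8.00e-05) after scaling. After scaling the 5 libraries labelled p53 KO fell between 8.15 and 9.91, above the 2.99 to 5.82 of i4F. Their coefficient of variation was 7.39% after scaling and 41.3% as deposited.

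Jund differed from the other Jun genes. It was at 102, 74.4, 52.6, 26.5 and 88.2 FPKM in the libraries labelled p53 KO, 9.14, 8.27, 12.6, 15.9 and 11.4 in i4F and 7.91, 17.99, 14.05, 16.4 and 8.54 in Ink4a/Arf KO, and no library of the other groups overlaps. The deposited difference from i4F was 2.38 ± 0.32 (adjusted p = 3.91e-06), but after scaling it was 0.38 with a 95% confidence interval of -0.01 to 0.77 (adjusted p = 0.0759). Its scaled difference from Ink4a/Arf KO was 0.15 (-0.24 to 0.53, adjusted p = 0.488). The scaled libraries labelled p53 KO lie just above all of i4F, at 20.05 to 26.2 against 14.6 to 19.5, and inside the range of Ink4a/Arf KO.

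The makeup of the Jun transcripts does not depend on the size factor. Junb held 44.8 to 56.3% of the summed FPKM of Jun, Junb and Jund in the libraries labelled p53 KO, against 10.4 to 16.6% in i4F and 13.3 to 23.9% in Ink4a/Arf KO. Jund held 30.7 to 39.2%, against 60.4 to 77.6% and 61.4 to 75.001%. Neither share overlaps between the libraries labelled p53 KO and the others, while the share of Jun does (13.01 to 15.9% against 11.9 to 24.1%). The leading Jun transcript was therefore Junb in these 5 libraries and Jund in the other 10.

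**Figure D2:**
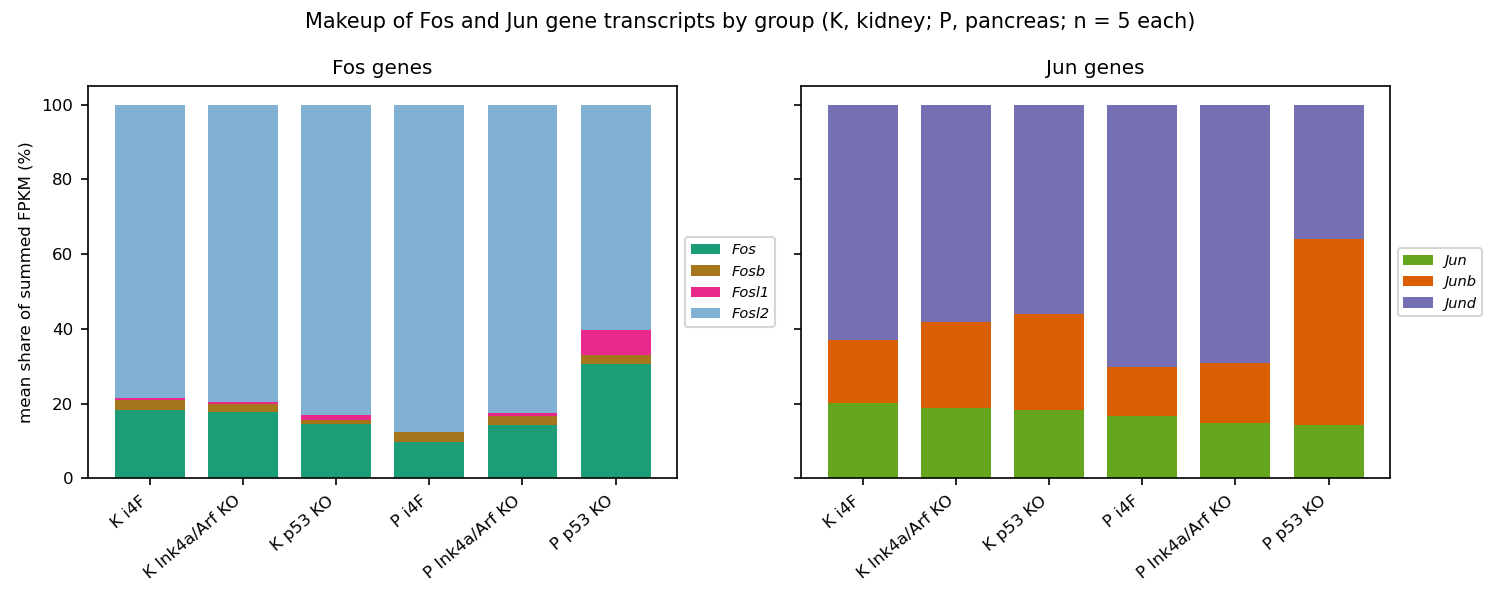
Mean share (%) of each gene in the summed FPKM of the 4 Fos genes (left) and of the 3 Jun genes (right), by group, n = 5 each. In pancreas labelled p53 KO the mean share of Junb is 49.8%, against 13.1% in i4F. In kidney it is 25.6% in the libraries labelled p53 KO, 23.2% in Ink4a/Arf KO and 16.7% in i4F.

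In pancreas labelled p53 KO, Egr1 was at 18.97, 17.2, 12.3, 6.24 and 20.5 FPKM, against 0.469, 0.381, 0.505, 1.52 and 0.677 in i4F and 0.217, 1.26, 1.003, 1.47 and 0.595 in Ink4a/Arf KO. The groups do not overlap, and replicate 4 is again the lowest of its group. The difference from i4F was 3.17 ± 0.29 (adjusted p = 1.52e-07) as deposited and 1.63 ± 0.19 (adjusted p = 5.58e-06) after scaling, with 3.02 ± 0.29 and 1.35 ± 0.19 against Ink4a/Arf KO. Scaled Egr1 varied little among the libraries labelled p53 KO, from 4.72 to 5.63 (coefficient of variation 7.34%).

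Ier2 was at 58.003, 44.9, 34.8, 19.001 and 42.4 FPKM in the libraries labelled p53 KO, 5.47, 5.78, 6.97, 9.47 and 10.5 in i4F and 6.51, 10.02, 8.61, 8.69 and 7.77 in Ink4a/Arf KO. It rose by 2.19 ± 0.26 against i4F as deposited (adjusted p = 1.11e-06), while after scaling the groups overlapped and the difference was 0.24 (-0.04 to 0.52, adjusted p = 0.115). For Ink4a/Arf KO as the other group the scaled interval was -0.28 to 0.27 (adjusted p = 0.984), around a difference that turns from 2.06 as deposited to -0.00324.

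Ier3 showed the widest spread. It was at 93.5, 96.4, 40.1, 16.5 and 207 FPKM in the libraries labelled p53 KO, 0.693, 0.893, 1.09, 1.95 and 2.48 in i4F and 1.09, 1.19, 1.41, 1.19 and 1.26 in Ink4a/Arf KO. Replicate 5 labelled p53 KO is the highest and replicate 4 the lowest, and still every one lies above the other 10 libraries. The difference from i4F was 4.85 ± 0.46 (adjusted p = 1.71e-07) as deposited and 3.08 ± 0.28 (adjusted p = 5.72e-07) after scaling, with 4.92 ± 0.46 and 3.05 ± 0.28 against Ink4a/Arf KO. After scaling the values ran from 12.5 to 54.8, with a coefficient of variation of 59.1%, against 81.03% as deposited.

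**Figure D3:**
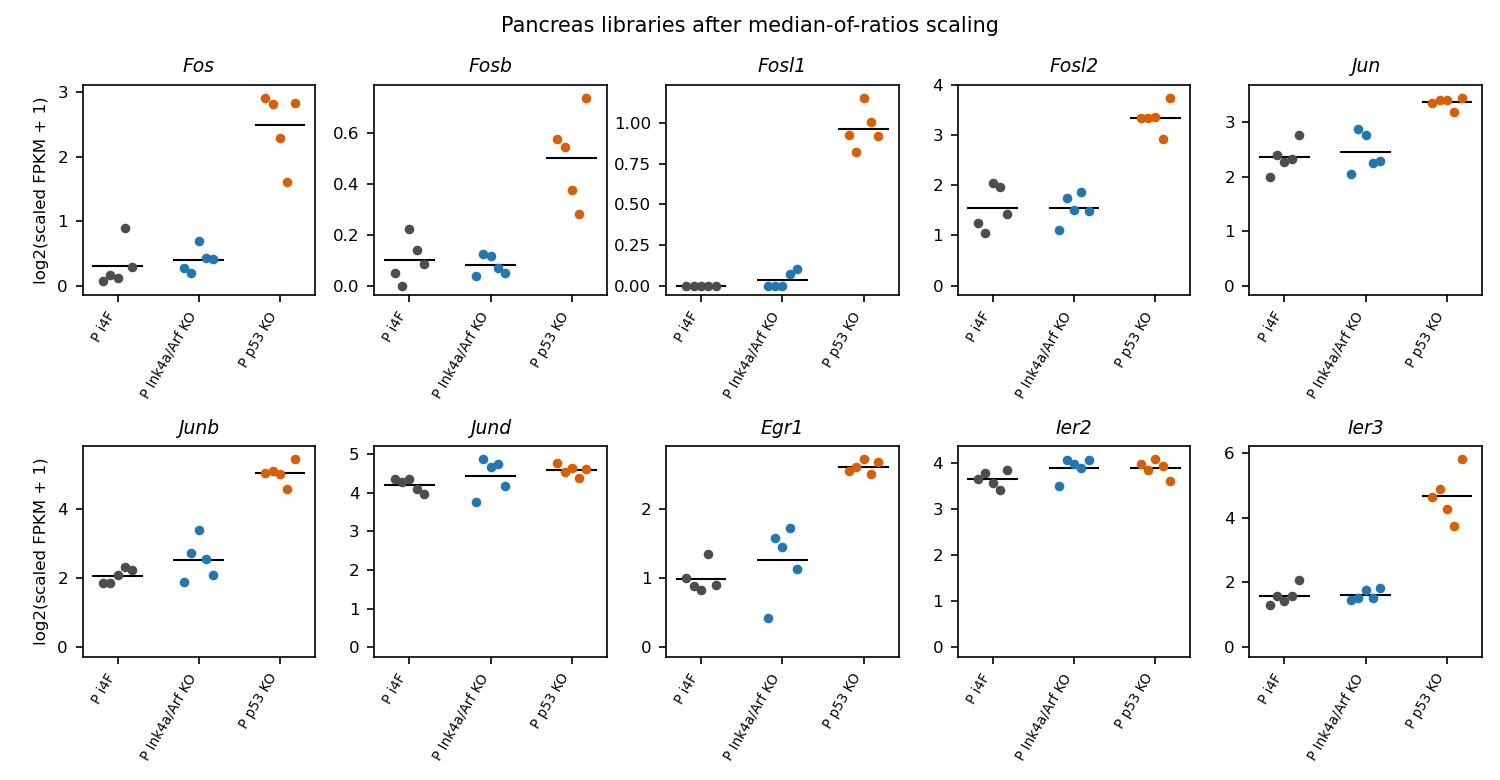
The 10 genes in the 15 pancreas libraries after scaling, as log2(scaled FPKM + 1), 5 points a group with the mean as a line. Jund and Ier2 lie at nearly the same height in the 3 groups, while the libraries labelled p53 KO stand apart in the other 8 panels.

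Markers of other cell types moved with these differences. After scaling, the sum of 10 macrophage markers was 435 to 854 in the libraries labelled p53 KO against 86.7 to 437 in i4F (overlapping narrowly), that of 10 fibroblast and stellate cell markers 437 to 2116 against 119 to 269, and that of 10 keratinocyte markers 91.4 to 262 against 0.717 to 4.61, where each of the 10 had a mean under 1 in i4F. The 8 proliferation markers summed to 29.6 to 52.9 against 1.504 to 5.04, and the 15 acinar markers found in the table to 1265 to 221415 against 259673 to 800433. The 9 endothelial markers, at 28.3 to 38.02 against 34.97 to 52.4, overlapped. The part of these cells in the members' differences was not tested. In such bulk samples fewer cells of a type and less RNA per cell cannot be told apart.

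Each member was also read relative to Jund, as the log2 difference within a library, compared over libraries by an exact two-sided permutation test (252 splits, smallest possible p 0.00794), 54 comparisons in all. On FPKM + 1 as deposited, the pancreas libraries labelled p53 KO had more Ier3 (2.47), Junb (2.43), Fos (1.13), Fosl2 (1.10) and Egr1 (0.79) relative to Jund than i4F, and less Fosb (-1.29), each without overlap and at that smallest p. The same test on each of 10780 genes gave an adjusted p of 0.0125 for these first 5, and 5.43% of genes were likewise higher relative to Jund without overlap. Fos and Egr1 passed the filter only through the libraries labelled p53 KO, so their ratios, here and below, are no support. The median of all genes in this ratio was -0.80 against i4F and -0.59 against Ink4a/Arf KO, so these shares depend on Jund as the reference. The ratios of Jun (0.45, exact p = 0.0476, adjusted p = 0.0608), Ier2 (-0.19) and Fosl1 (-0.53, exact p = 0.0556) overlapped. Against Ink4a/Arf KO, Ier3 (2.67), Junb (2.25), Fosl2 (1.34), Fos (1.27), Egr1 (0.77) and Jun (0.59) were higher without overlap (adjusted p = 0.0245, 4.8% of genes), Fosb was lower without overlap (-1.14), and Fosl1 (-0.42) overlapped.

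The 1 added to each value makes these ratios depend on the scale of the library, most of all for genes near 0. With no constant added, which is possible for members above 0 in all 10 libraries, the ratios against i4F were 4.43 for Fos, 3.22 for Ier3, 2.92 for Junb, 2.00 for Egr1 and 1.89 for Fosl2, all without overlap (exact p = 0.00794, adjusted over 10508 genes p = 0.0169). Of those genes 10.4% were higher relative to Jund without overlap, and their median was -0.41. The ratios of Fos and Egr1 are again no support, for the reason given above. Jun was at 0.78 (exact p = 0.0238, adjusted p = 0.0409) and Ier2 at -0.14 (exact p = 0.429), both with overlap, and Fosb and Fosl1, listed at 0 in i4F libraries, have no such ratio. Against Ink4a/Arf KO the ratios were 3.78 for Fos, 3.41 for Ier3, 2.61 for Junb, 2.12 for Fosl2, 1.86 for Egr1 and 0.92 for Jun, without overlap (adjusted p = 0.0271, 11.8% of genes). There Fosb, which is outside the test over all genes, turned to 2.80, again without overlap. On scaled values with 1 added, Fosb was at 0.02 and 0.28 against i4F and Ink4a/Arf KO, both with overlap, and Fosl1 at 0.59 and 0.79, so the lower ratios of these 2 genes rested on the scale. With Fosl2 in place of Jund (FPKM + 1 as deposited) the ratios of Jun and Egr1 turned negative in both comparisons, at -0.66 and -0.75 for Jun and -0.32 and -0.57 for Egr1, and Fos was at -0.07 against Ink4a/Arf KO.

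Loss of Ink4a/Arf came with no change past the test in any member. In kidney 0 of 8 tested members were called against i4F (0% of genes), and 0 at an unadjusted p under 0.05, against 398 of 12431 genes. Junb, with the largest difference upward, differed by 0.41 ± 0.29 (adjusted p = 0.997). It was at 11.4, 21.9, 12.6, 7.28 and 10.7 FPKM in Ink4a/Arf KO and 7.78, 8.65, 6.05, 13.5 and 9.502 in i4F, which overlap broadly. Fos and Egr1 were highest in replicate 2 of Ink4a/Arf KO, at 2.31 and 9.32 FPKM, the same library in which Junb was highest. Jun ranged over 6.13 to 13.6 FPKM in Ink4a/Arf KO against 7.19 to 15.9 in i4F, Jund over 25.6 to 35.9 against 28.4 to 39.2 and Fosl2 over 2.26 to 5.08 against 1.56 to 5.38. Ier2 ranged over 4.59 to 8.18 against 5.72 to 8.44, and Ier3 over 12.7 to 43.04 against 18.1 to 52.1, with replicate 1 of Ink4a/Arf KO the highest of its group. Every member's ranges overlap between these 2 kidney groups. In pancreas 0 of 9 tested members were called as deposited (0% of genes) and 0 at an unadjusted p under 0.05, with differences of -0.10 to 0.31. Only 36 of 10781 genes (0.334%) had such a p. That fit shares its spread with the uneven libraries labelled p53 KO, so 0 calls say little. After scaling 0 of 9 were called and 0 had an unadjusted p under 0.05, against 512 genes, with differences of 0.00069 to 0.45. With 5 mice a group a log2 change of 1 was recovered in simulated data for 81% of changed genes in kidney and 55% in pancreas. In both tissues the group labelled p53 KO, not Ink4a/Arf KO, was the one changed. The changed genes had a mean log2(FPKM + 1) above 1 in i4F, so these shares do not cover lower members such as Fos.

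In kidney the members were higher on average in the libraries labelled p53 KO, but none passed the test over all genes. All 8 tested members had a fold change above 0 against i4F (55.4% of genes), with a median of 0.42 against 0.03 over all genes, and 7 of 8 after scaling (50.8% of genes). None of the 8 was called, against 0.257% of genes, and 3 had an unadjusted p under 0.05 (Junb, Fosl2 and Jund), as did 13.2% of genes. Of the 8, 1, Fos, entered the test only through the libraries labelled p53 KO.

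Junb was at 36.8, 14.4, 12.95, 25.02 and 21.6 FPKM in replicates 1 to 5 labelled p53 KO, against 7.78, 8.65, 6.05, 13.5 and 9.502 in i4F. Only replicate 3 labelled p53 KO lies below replicate 4 of i4F, and after scaling the groups do not overlap (1.3% of genes). The difference was 1.14 ± 0.29 (adjusted p = 0.105) as deposited and 1.12 ± 0.26 (adjusted p = 0.0775) after scaling. Relative to Jund it was 0.72 higher without overlap (exact p = 0.00794, adjusted over all genes p = 0.1499), which 0.0885% of genes matched. Jund itself was higher on average in these libraries (below), and the median of all genes relative to Jund was -0.40. That small share therefore depends on Jund as the reference. Against Ink4a/Arf KO, which shares the libraries labelled p53 KO, Junb differed by 0.73 ± 0.29 (adjusted p = 0.221), and by 0.18 relative to Jund, with overlap. Kidney Ink4a/Arf KO was itself 0.54 higher than i4F in the ratio of Junb to Jund, with overlap (exact p = 0.0397, adjusted over all genes p = 0.776).

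Fosl2 was at 9.97, 4.37, 2.897, 6.59 and 4.46 FPKM in the kidney libraries labelled p53 KO and 2.91, 2.48, 1.56, 5.38 and 3.08 in i4F (0.68 ± 0.29, adjusted p = 0.321), with overlap. Jund was at 69.1, 33.8, 34.8, 46.6 and 49.1 against 29.5, 28.4, 33.02, 39.2 and 38.2 (0.42 ± 0.17, adjusted p = 0.301). For both, replicate 1 labelled p53 KO is the highest of the 15 kidney libraries, as it is for Jun (29.9 FPKM). Jun differed by 0.43 ± 0.30 (adjusted p = 0.567) and Ier2 by 0.42 ± 0.22 (adjusted p = 0.432). Egr1 was near 0 in its difference, which turned sign with the scaling: it was at 9.37, 2.42, 1.16, 3.57 and 2.54 FPKM labelled p53 KO, 5.83, 2.41, 1.03, 5.63 and 2.81 in i4F, with a fold change of 0.01 ± 0.47. Ier3 was at 32.4, 18.04, 15.7, 28.8 and 80.8 FPKM labelled p53 KO and 25.98, 29.3, 18.1, 27.1 and 52.1 in i4F, with replicate 5 the highest in both groups.

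Against Ink4a/Arf KO, 0 of 8 members were called in kidney (0.265% of genes) and 3 had an unadjusted p under 0.05, as did 17.96% of genes. These were Jund (0.56 ± 0.17, adjusted p = 0.149), Junb (above) and Ier2 (0.54 ± 0.22, adjusted p = 0.228). With array weights, which give less weight to libraries far from the fit, 3 members were called against i4F (Junb 1.30, adjusted p = 0.0174, Jund 0.51, adjusted p = 0.0353, and Fosl2 0.84, adjusted p = 0.0408) and 5 against Ink4a/Arf KO (Fosl2, Jun, Junb, Jund and Ier2), all higher. In the same fits 8.97% and 19.5% of all genes were called higher. Without the 4 kidney libraries that hold over 100 FPKM of the acinar gene Clps (i4F replicate 5 and replicates 2, 3 and 4 labelled p53 KO), which leaves 2 libraries labelled p53 KO, 2 members were called higher in each comparison, Jund and Ier2, against 0.979% and 4.41% of genes. The sum of 8 neutrophil markers was 58.9 to 172 FPKM in the libraries labelled p53 KO against 13.8 to 24.9 in i4F, and that of 10 proximal tubule markers 6827 to 39532 against 21272 to 82359.6, and their part in these differences was not tested.

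**Figure D4:**
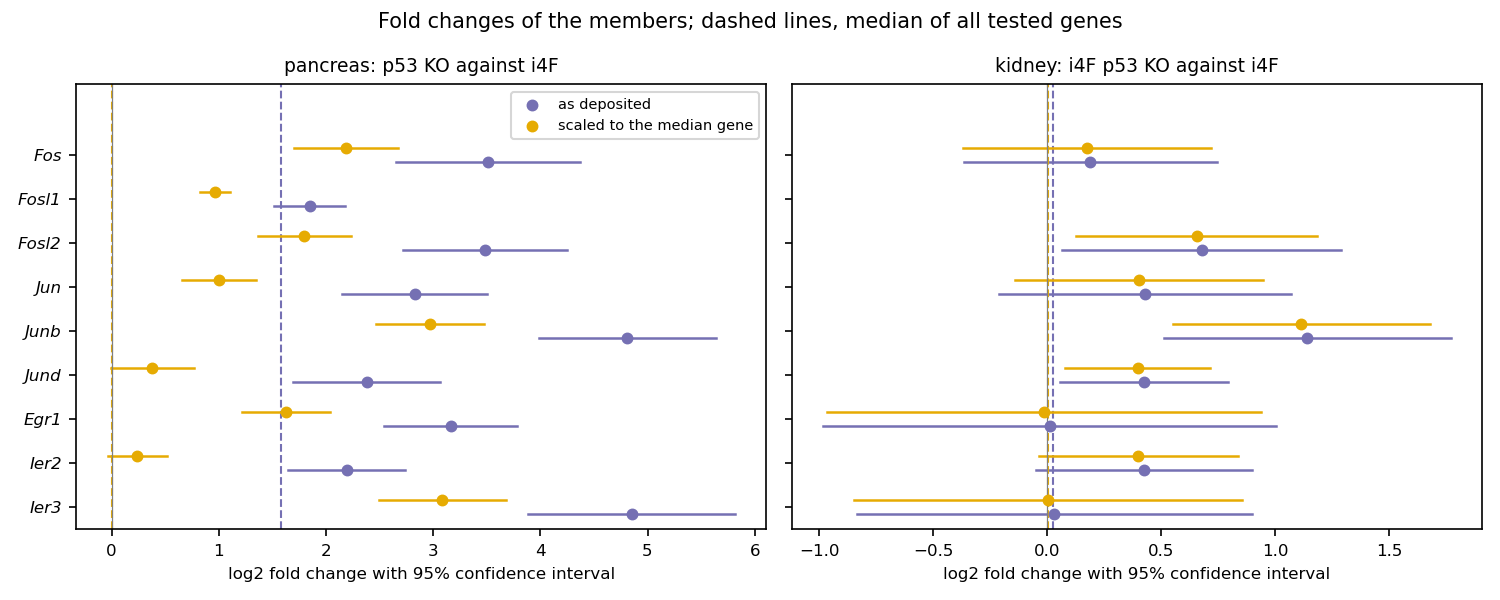
log2 fold changes of the tested members with 95% confidence intervals, as deposited (purple) and scaled (yellow), for the libraries labelled p53 KO against i4F in pancreas (left) and kidney (right). Dashed lines mark the median of all tested genes, 1.58 as deposited in pancreas, and the 2 panels have different horizontal ranges.

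Whether the difference between the libraries labelled p53 KO and i4F itself differed between pancreas and kidney was tested as an interaction over the libraries of both tissues, taken as independent (whether 1 mouse gave both tissues is not stated). As deposited, all 9 tested members were higher by the interaction (86.2% of genes called, 84.5% higher), where the median gene was at 1.40. After scaling, 6 of 9 were called and all 6 were larger in pancreas, against 42.5% of genes called and 20.7% larger in pancreas. They were Ier3 (3.08 ± 0.50, adjusted p = 3.05e-05), Fos (2.01 ± 0.35, adjusted p = 6.70e-05), Junb (1.85 ± 0.37, adjusted p = 2.42e-04), Egr1 (1.64 ± 0.50, adjusted p = 0.0102), Fosl2 (1.14 ± 0.33, adjusted p = 0.00707) and Fosl1 (0.85 ± 0.11, adjusted p = 2.00e-06). Fos and Fosl1 would not pass the filter in either tissue without the libraries labelled p53 KO, so no count that includes them is support. The interaction of Jun was 0.60 ± 0.31 after scaling (adjusted p = 0.119), so its larger rise in pancreas did not pass. Jund and Ier2 were at -0.02 (-0.51 to 0.47) and -0.16 (-0.66 to 0.34). The pancreas label does not name i4F, so the tissue and the presence of the cassette in the label cannot be told apart here. Pou5f1 ranged over 24.6 to 98.2 FPKM in pancreas labelled p53 KO, against 0 to 1.14 in pancreas i4F and 0.0456 to 1.91 in pancreas Ink4a/Arf KO. In kidney labelled p53 KO it ranged over 0.6502 to 15.7. The p53 KO label and the level of Pou5f1 therefore cannot be told apart in any pancreas comparison with that group.

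In kidney the level of Pou5f1, the gene of 1 of the induced factors, varied between mice within each group: 0.151, 0, 0.0417, 5.397 and 1.25 FPKM in i4F, 0.492, 2.55, 4.87, 0 and 1.05 in Ink4a/Arf KO and 15.7, 0.6502, 3.48, 8.86 and 4.88 in the libraries labelled p53 KO. Whether that row counts the cassette as well as the native gene is not given in the sources used here. Across the 15 libraries, on log2(scaled FPKM + 1), Pou5f1 rose with Fosl2 (Pearson's r = 0.871, Spearman's rho = 0.856) and Junb (r = 0.854, rho = 0.853). It also rose with Jun (r = 0.791, rho = 0.826) and Jund (r = 0.787, rho = 0.828). By permutation (100000 resamples, two-sided, adjusted over the 38 relations computed) the p of Fosl2 was 0.0014, and Ier2 (r = 0.689), Fosl1 (0.635) and Fos (0.627) passed as well, although Fosl1 was under 0.1 FPKM in 13 of the 15 libraries. Egr1 (0.497), Fosb (0.354) and Ier3 (0.173) did not. Many genes share this pattern: 0.467% of 12430 genes had a higher r than Fosl2, 0.756% than Junb, 2.21% than Jun and 2.31% than Jund. With each group centred on its mean, r was 0.807 for Fosl2, 0.772 for Junb, 0.748 for Jun and 0.715 for Jund, while Ier2 and Fosl1 no longer passed (adjusted p = 0.06298 for both). Without the 2 libraries farthest from the median of Pou5f1, replicates 1 and 4 labelled p53 KO, r was 0.771 for Fosl2 and 0.742 for Junb, which still passed, and 0.604 and 0.639 for Jun and Jund, which did not. Ier2, Fosl1 and Fos did not pass without them either (adjusted p = 0.09204, 0.1048 and 0.08803). In the 10 pancreas libraries of i4F and Ink4a/Arf KO no relation passed by Pearson's r, and the highest was Junb (r = 0.71, adjusted p = 0.0602, with rho = 0.758 and adjusted p = 0.0438).

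**Figure D5:**
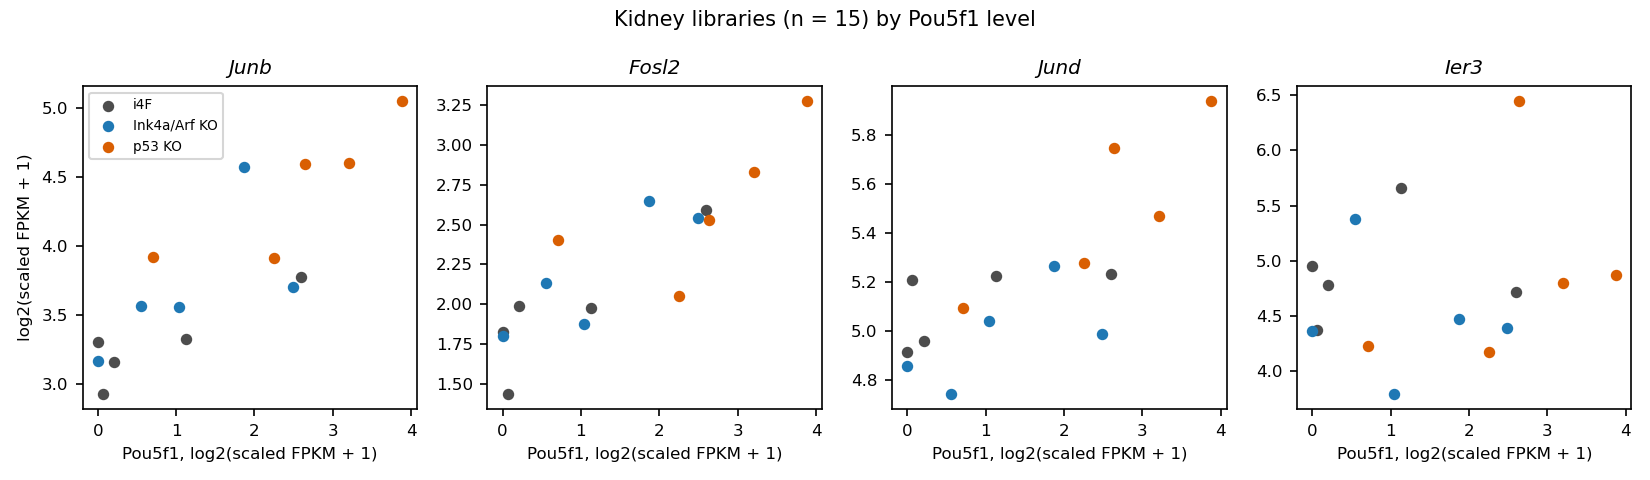
Pou5f1 (horizontal) against Junb, Fosl2, Jund and Ier3 (vertical) in the 15 kidney libraries, all as log2(scaled FPKM + 1), coloured by group. The points of Junb, Fosl2 and Jund climb to the right, with replicate 1 labelled p53 KO at the upper right, and those of Ier3 do not (r = 0.173).

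Among themselves the members moved together in kidney in part. Fos went with Egr1 (r = 0.825, rho = 0.882, adjusted p = 0.0014 by permutation), Fosl2 (0.728, adjusted p = 0.0115), Ier2 (0.717, adjusted p = 0.0118) and Junb (0.714, adjusted p = 0.0118), and the first 3 still passed without the 2 libraries farthest in Fos (r = 0.777 to 0.875). The relation with Junb then did not (r = 0.615, adjusted p = 0.0749), while those with Fosl1 (r = 0.5797) and Jun (0.736), which had not passed over all 15 libraries, did. Only 0.008% of 12430 genes had a higher r with Fos than Egr1 did. In the 10 pancreas libraries none of the 9 relations with Fos passed. By Pearson's r over the 15 kidney libraries and 8175 genes with a mean of at least 5 FPKM, the genes outside the members most like Fos were Wfs1 (0.823), Btg2 (0.810), Krt18 (0.808), Itga3 (0.799) and Pdgfa (0.793). Those most like Jun were Nop58 (0.951), Sf3b3 (0.933), Pea15a (0.929), Steap1 (0.926) and Klf6 (0.924). Genes among those most like Fosl2 were Hspb8 (0.925), Sbno2 (0.923), Cic (0.913) and Uba2 (0.912). Btg2 and Klf6 are themselves immediate early genes. In pancreas (10 libraries, 2822 genes) the first of each were Arpc4 (0.937) for Fos, Sec24d (0.799) for Jun and Ddit4 (0.969) for Fosl2.

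Other genes of the pathway are given after scaling in pancreas, libraries labelled p53 KO against i4F, where 32.9% of all genes rose and 33.2% fell. Many of these genes entered the test only through the libraries labelled p53 KO, where they are high. The counts over all tested genes are therefore no support, nor is the rise of a named gene that entered in this way. Counts over the genes that pass the filter without these libraries are given beside them. Upstream, among MAP kinases and ternary complex factors, 11 rose and 5 fell of 25 tested, and 8 rose and 5 fell of the 18 that pass without them. Nras, a small GTPase at the head of the kinase cascade, was at 20.96 ± 10.9 against 1.75 ± 0.917 FPKM and rose by 1.14 ± 0.13 (adjusted p = 4.24e-06), as did Map2k3, a kinase of p38, by 1.17 ± 0.13. Mapk9, which encodes a Jun kinase, fell by 0.87 ± 0.09 after scaling although its deposited mean was higher (9.81 ± 3.04 against 4.74 ± 1.42 FPKM). Among other AP-1 dimer partners 4 rose and 3 fell of 10 tested (1 and 3 of the 6 that pass without them), with Mafg, a small Maf protein, at 0.95 ± 0.16 and Atf6, a factor of the unfolded protein response, at -0.97 ± 0.10.

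Among other immediate early transcription factors 9 rose and 1 fell of 12 tested, but only 3 pass without the libraries labelled p53 KO, of which 1 rose. Maff, a small Maf protein, rose by 1.86 ± 0.18, Klf10 by 1.48 ± 0.19 and Atf3, a stress-induced partner of Jun proteins, by 1.37 ± 0.14 (from 0.587 ± 0.384 to 11.3 ± 5.91 FPKM as deposited). At most 1 of these 3 can have passed the filter without the libraries labelled p53 KO, and the rises of the others are no support. Among the other immediate early genes 12 rose and 1 fell of 18 tested, and 7 rose and 1 fell of the 13 that pass without them. Phlda1 rose by 3.56 ± 0.18 and Ptgs2, the inducible cyclooxygenase, by 3.05 ± 0.17, from 0.0597 ± 0.0458 to 25.7 ± 17.3 FPKM. With so low a level in i4F, the same limit may hold for Ptgs2. Among feedback inhibitors 10 rose and 2 fell of 16 tested, and 4 rose and 2 fell of the 10 that pass without them. Dusp4, a nuclear MAP kinase phosphatase, rose by 2.82 ± 0.20 and Dusp14 by 2.71 ± 0.19.

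Downstream, of textbook AP-1 target genes 14 rose and 2 fell of 17 tested, and 4 rose and 2 fell of the 7 that pass without the libraries labelled p53 KO. Timp1, an inhibitor of matrix metalloproteinases, rose by 5.81 ± 0.33 (from 0.997 ± 0.7804 to 392 ± 258 FPKM), the basal keratin gene Krt14 by 5.01 ± 0.24 and Plaur, the urokinase receptor, by 4.24 ± 0.26. These 3 are also expressed by stroma, squamous cells and macrophages, whose markers moved as given above. Krt14 entered the test only through the libraries labelled p53 KO, so its rise is no support. Against Ink4a/Arf KO, with the same libraries labelled p53 KO, the rises and falls among the genes that pass without them were 1 and 0 of 3 transcription factors, 8 and 1 of 13 other immediate early genes, 6 and 1 of 10 feedback inhibitors and 4 and 1 of 7 AP-1 targets.

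In kidney these lists held almost no call. Plk2, a polo-like kinase that p53 is known to induce, was the exception: it was at 2.03 ± 0.4895 FPKM in the libraries labelled p53 KO and 3.72 ± 0.392 in i4F, and fell by 0.65 ± 0.11 (adjusted p = 0.0227), and by 0.59 against Ink4a/Arf KO (adjusted p = 0.0407). Dusp14 rose against Ink4a/Arf KO after scaling alone, where 0.563% of genes were called (0.79 ± 0.16, adjusted p = 0.0468). Of the 15 tested AP-1 targets 0 were called against i4F, 14 had a fold change above 0 and the median was 0.63, against 0.03 over all genes, with 1 of the 15 in the test only through the libraries labelled p53 KO.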

How the data were processed

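Stranded poly(A) libraries were made from 1 µg RNA (integrity numbers 7.4 to 9.4) with 8 PCR cycles, and over 24 M reads mapped per sample, per the labels' protocols. The authors deposited FPKM, 1 table per tissue. Tools listed in the submitters' processing notes, without roles, are Cufflinks 2.2.1, TopHat2 2.0.10, SAMtools 0.1.19, Bowtie 1.0.0 and FastQC, with build mm10, and whether libraries were scaled to each other is not stated. As no counts entered the work, the reads behind each gene are unknown and no counting interval was computed.

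The groups follow the labelled tissue and genotype, with 5 mice each. Genes that reached 1 FPKM in 5 or more of the 15 libraries of a tissue entered limma 3.58.1 (R 4.3.3) as log2(FPKM + 1) (eBayes with a trend, no covariate, all groups of a tissue sharing the spread). Tests were two-sided, p-values were Benjamini-Hochberg adjusted over all genes, and 0.05 was the threshold for a call. Scaled values are FPKM divided by a median-of-ratios size factor. Ratios to Jund used exact permutation tests, and relations between genes 100000 resamples, in Python 3.11.15. Promoter windows were RefSeq GRCm38.p6, and gene models GENCODE M21.

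The members and gene lists were chosen with earlier results of these data known. Members are named in full. Of each list up to 3 called genes with the smallest p were eligible, and in kidney Plk2 and Dusp14 were named because they were the only calls. For each of Fos, Jun and Fosl2 the 5 genes with the highest r were eligible. Some genes that this rule takes in are not reported here. Lists were 8 pathway and 12 marker lists, of which those that bear on a result are given.

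The fit was tested on simulated data with 200 changed genes, drawn from those with a mean log2(FPKM + 1) above 1 in i4F. It recovered 81% of genes changed by a log2 fold of 1 and 97% by 2 for kidney i4F p53 KO against i4F (12431 genes, 7 false calls), and 55% and 91% for pancreas p53 KO against i4F (10781 genes, 9 false calls). Alternatives were a pseudocount of 0.1, other filters, scalings and weights, robust variances, a replicate block, a covariate for Xist, males only, 2 groups only, kidneys without Clps and leaving out each library. For the scaled pancreas comparisons the block, males only and leaving out each library were chosen after seeing the data, as were ratios to Jund on scaled values and with no constant added.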

Additional observations from a re-analysis of the deposited data

Results flagged for a closer look

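A single library stood apart from the other 4 of its group in 7 of the 59 groups of values examined. The cut used flags about 1 in 20 groups when values have a normal spread. The FPKM were not tested for such a spread, so 7 of 59 is not read as more than chance. In all 7 the library that stood apart was the highest of its group. In kidney these were Fosb in i4F replicate 4 (0.619 FPKM, next highest 0.0915), Fosl1 in Ink4a/Arf KO replicate 2 (0.106, next 0.0239), Fosl1 in replicate 1 labelled p53 KO (0.545, next 0.0538), Ier3 in Ink4a/Arf KO replicate 1 (43.0, next 21.1) and Ier3 in replicate 5 labelled p53 KO (80.8, next 32.4). In pancreas they were Fos (0.835, next 0.168) and Egr1 (1.52, next 0.677) of the same library, i4F replicate 4. Kidney replicate 1 labelled p53 KO is also the library with the highest Pou5f1, at 15.7 FPKM.

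The difference between the libraries labelled p53 KO and i4F itself differed between pancreas and kidney for all 9 tested members as deposited, in limma's interaction test. The pancreas difference was larger by 4.82 for Ier3, 3.67 for Junb, 3.32 for Fos, 3.16 for Egr1, 2.81 for Fosl2, 2.40 for Jun, 1.96 for Jund, 1.77 for Ier2 and 1.73 for Fosl1 on the log2 scale, where the median of all genes was 1.40. After scaling the values were 3.08, 1.85, 2.01, 1.64, 1.14, 0.60, -0.02, -0.16 and 0.85 in the same order, and Jun, Jund and Ier2 no longer passed. Fos and Fosl1 entered this test only through the libraries labelled p53 KO, so no count that includes them is support.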

How the results depend on the processing

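Read counts were not used, so depth limits cannot be stated gene by gene, and members under 1 FPKM are the least certain. These are Fosb and Fosl1 in all kidney groups, and Fos, Fosb and Fosl1 in pancreas outside the libraries labelled p53 KO. Fos in kidney i4F and Ink4a/Arf KO, and Egr1 in the same 2 pancreas groups, were under 1 FPKM on average. The cause of the changes below was not tested, except where fewer libraries or genes entered a fit. With array weights 3 members were called in kidney p53 KO against i4F and 5 against Ink4a/Arf KO, in place of 0 (8.97% and 19.5% of all genes were called higher in these fits), and without the Clps libraries 2 in each (0.979% and 4.41%). Without the 2 farthest libraries 7 relations passed in place of 11: 5 of the 11, and 2 that had not passed over all libraries. Leaving out 1 library gave 0 calls in every kidney comparison and 7 to 9 in both deposited pancreas p53 KO comparisons, because Fos and Fosl1 can fall below the filter when a library labelled p53 KO is left out. After scaling it gave 7 to 8 against i4F (Jund passed, adjusted p = 0.0209, without Ink4a/Arf KO replicate 1) and 7 against Ink4a/Arf KO.

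The sign turned for Egr1 in kidney p53 KO against i4F (-0.092 with array weights, -0.014 scaled, -0.040 with quantile normalization, -0.32 to 0.25 leaving out 1 library). In pancreas against Ink4a/Arf KO it turned for Ier2 after scaling (-0.0032, and -0.10 to 0.067 leaving out 1 library) and for scaled Jund in males only (-0.028, and -0.028 to 0.25 leaving out 1 library). In the interaction it turned for Jund (-0.016 scaled) and Ier2 (-0.16 scaled, -0.028 with quantile normalization). Ratios to Jund turned with a pseudocount of 0.1 for Fosb (0.55 against i4F, 0.85 against Ink4a/Arf KO) and Fosl1 (2.27 and 2.24), on scaled values for Fosb (0.025 and 0.28) and Fosl1 (0.59 and 0.79), with no constant added for Fosb (2.80 against Ink4a/Arf KO), and with Fosl2 as the reference for Jun (-0.66 and -0.75), Egr1 (-0.32 and -0.57) and Fos (-0.071 against Ink4a/Arf KO).

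The labels do not say that replicate numbers pair mice. Same-numbered libraries deviated together (r over 0.1) in at most 3 of 5 pairs of any comparison. With the replicate block the numbers of members called were 0 in all kidney comparisons and in pancreas Ink4a/Arf KO against i4F, 9 in both pancreas p53 KO comparisons and in the interaction, and 7 in both after scaling, so the block moved none of these counts. The adjusted p of Junb in kidney p53 KO against i4F was 0.214 with the block.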

Other observations

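Ligands that switch on the kinase cascade, and the heat shock genes, were read in the same way after scaling in pancreas, libraries labelled p53 KO against i4F. Of the EGF family, 4 rose and 1 fell of 7 tested, but 4 of the 7, Hbegf among them, entered the test only through the libraries labelled p53 KO, and 2 rose and 1 fell of the other 3. Egf itself, made by acinar cells and kidney tubules, was at 1.46 ± 1.32 FPKM against 7.18 ± 0.837 and fell by 2.92 ± 0.28 (adjusted p = 1.04e-06). Hbegf, a ligand cleaved from the membrane of stressed cells, was at 9.54 ± 5.54 against 0.358 ± 0.111 and rose by 1.32 ± 0.17, and the receptor gene Erbb3 rose by 1.40 ± 0.15. Of the heat shock genes 12 rose and 1 fell of 14, and 10 rose and 1 fell of the 12 that do not depend on these libraries to pass the filter. Hsp90aa1 rose by 1.98 ± 0.16, Hspa1b, which does depend on them, by 1.81 ± 0.17 and Dnajb1 by 1.35 ± 0.15. Over all genes 32.9% rose and 33.2% fell. Against Ink4a/Arf KO, which shares the libraries labelled p53 KO, 2 rose and 1 fell of the same 3 EGF family genes and 7 rose and 2 fell of the same 12 heat shock genes. In kidney none of the 8 EGF family genes and none of the 14 heat shock genes tested was called against i4F or Ink4a/Arf KO.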
